A study of Sus scrofa with 6 samples.

Results

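Abdominal aorta without lesions was profiled by RNA sequencing in 3 pools of the 6 in the series, chosen as those labelled lesion free. The pools came from normal miniature swine of the WMS (Wisconsin Miniature Swine) line. RNA of 11 animals was combined into the 3 pools, which carry the numbers 4, 5 and 6. The sources used here do not say which animals entered which pool, and give no sex, age, diet or treatment for them. Each pool mixes several animals, so an SD here is over the 3 pools and not over animals. The other 3 pools, from lesioned aorta, enter no value below. The pools held 10826175, 8492673 and 9900513 counts. Values are counts scaled to a pool total of 1000000 (CPM), and a gene is called detected where it reached 1 CPM in each of the 3 pools. CPM are not divided by transcript length, so a value describes how many of the reads a gene took and does not order genes by number of molecules. Whole aortic wall was sequenced, so fewer cells of a type and less RNA per cell cannot be told apart.

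The wall of a large elastic artery has an endothelial lining, a thick media of smooth muscle cells between elastic sheets, and an outer adventitia of fibroblasts, collagen, small vessels and nerves. Smooth muscle cells of the media contract through actin and smooth muscle myosin, answer to vasoactive hormones through membrane receptors, and also produce most of the elastin, collagen and proteoglycan around them. Macrophages and mast cells reside in small numbers in a healthy wall, chiefly towards the adventitia.

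Of 22861 genes in the table, 9916 were detected, which is 43.4% of all genes and 50.4% of the protein-coding genes (9795 of 19442). A further 8754 genes had 0 counts in all 3 pools. Single pools had 12511, 11834 and 13470 genes with at least 1 count. A count of 0 allows a level of up to 0.277, 0.353 and 0.303 CPM in pools 4, 5 and 6 (3 counts of the total, counting error only). A listed 0 is not always a silent gene, because TPT1, which nearly every cell uses, was also listed at 0 in all 3 pools. Of 782 genes on the 48 lists used below, 653 were matched to the table and 490 were detected. The 50.4% of protein-coding genes detected is the share to set beside each list count below.

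Pool 4 stood apart from the other pools, and its values are therefore given beside every result. Across the 14107 genes with a count, log2(CPM + 1) correlated at r = 0.96 between pools 5 and 6, against 0.93 between pools 4 and 5 and 0.94 between pools 4 and 6 (Spearman 0.95, 0.92 and 0.93). Among 5217 genes with a mean of at least 20 CPM, 98.3% lay within 2-fold of each other in pools 5 and 6, 86.4% in pools 4 and 5, and 84.9% in pools 4 and 6. Pool 4 lay over 2-fold below both other pools in 462 of those genes (8.86%) and over 2-fold above both in 32 (0.613%). For pool 5 the same counts were 24 (0.46%) and 12 (0.23%), and for pool 6 they were 13 (0.249%) and 14 (0.268%). AHNAK, the giant scaffold protein desmoyokin, stood at 58.9, 714 and 861 CPM in pools 4, 5 and 6. TNS1, the focal adhesion protein tensin, stood at 111, 1388 and 1308 CPM. KMT2C, a histone methyltransferase, stood at 0.924, 31.2 and 37.6 CPM. In pools 5 and 6 each of these genes was close, and in pool 4 it was several-fold lower. The 66 ribosomal protein genes, which build the ribosome, showed the opposite and took 11.2, 7.37 and 5.91% of the counts in pools 4, 5 and 6. The 12 mitochondrially encoded protein genes counted here took 6.10, 4.85 and 4.21%. Both shares were highest in pool 4, and their part in the low values of that pool was not tested.

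**Figure D1:**
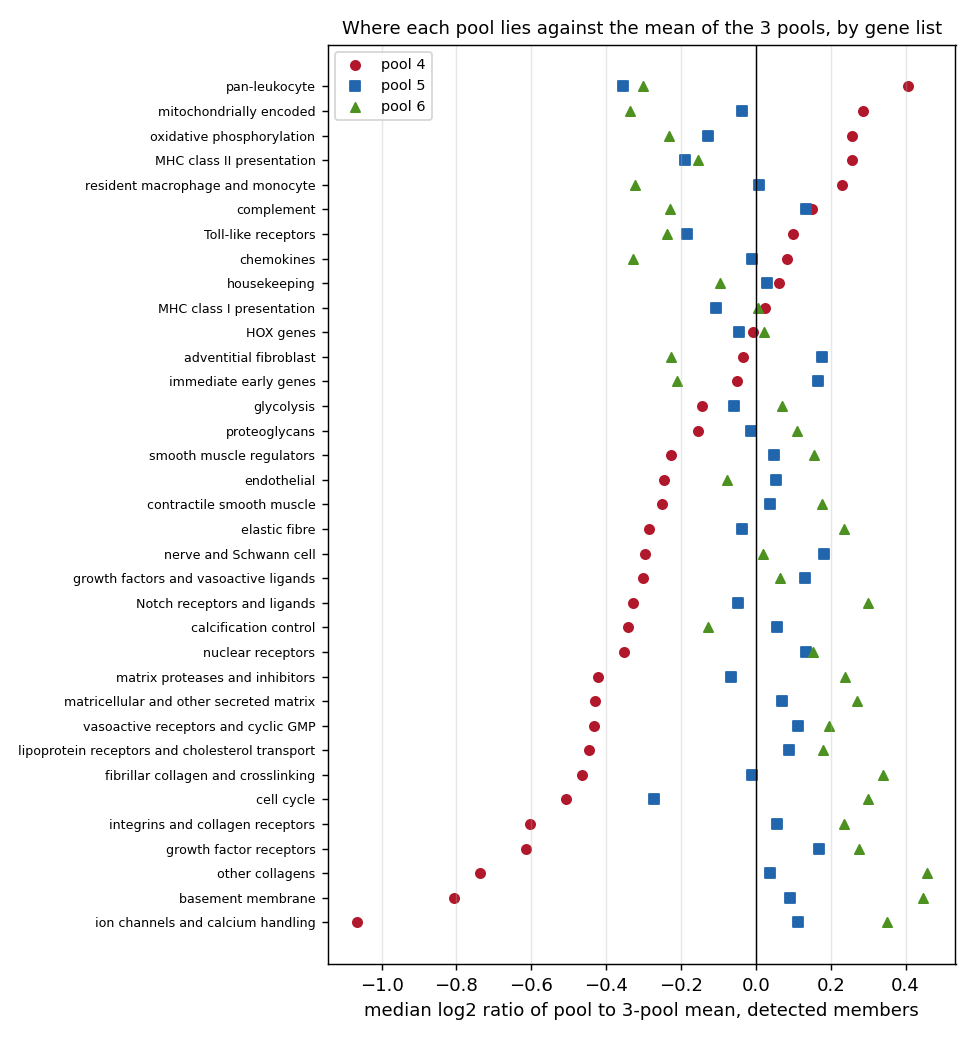
For each gene list with at least 5 detected members (rows), the median log2 ratio of a pool's CPM to the mean of the 3 pools is plotted (horizontal axis, log2 units, pseudocount 1 CPM; circles pool 4, squares pool 5, triangles pool 6). Pool 4 lies at -1.07 for ion channels and -0.81 for basement membrane genes, and at 0.41 for leukocyte genes.

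The labelled tissue was checked against smooth muscle markers. ACTA2, smooth muscle alpha-actin and the main actin of the contractile filament, stood at 21405, 21889 and 24821 CPM in pools 4, 5 and 6 (22705 ± 1849, SD, n = 3). DES, the intermediate filament desmin, stood at 10081, 11996 and 11261 CPM (11112 ± 966). CNN1, the actin-binding regulator calponin, stood at 7979, 8680.3 and 9603 CPM (8754 ± 815). These markers were among the 10 named genes with the most counts, and their coefficients of variation were 8.14%, 8.70% and 9.30%. No value is given for MYH11, the smooth muscle myosin heavy chain, for which no row of the table could be matched.

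Other contractile genes were likewise present in every pool. All 24 of 24 matched contractile genes were detected, with a median of 2021 CPM and a sum of 134176, 129573 and 135889 CPM in pools 4, 5 and 6. The coefficient of variation (SD over mean) of that sum was 2.45%, although single members varied more. TAGLN, the actin-bundling protein transgelin, took 25073, 19544 and 19813 CPM. CSRP1, a cytoskeletal LIM protein, took 15697, 13435 and 13041 CPM, and pool 4 was highest for both. The regulatory light chain MYL9 took 13859, 14025 and 12509.9 CPM. TPM2, beta-tropomyosin, took 10782, 8382 and 8382 CPM. The essential light chain MYL6, carried by 2 rows that were added, took 11118, 7559 and 7246 CPM. SMTN, the contractile-state marker smoothelin, stood at 3111, 4162 and 4308 CPM, and CALD1, the myosin-restraining protein caldesmon, at 2702, 4153 and 4977 CPM. For these last genes pool 4 was the lowest.

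Other contractile genes, 4 in number, were over 2-fold lower in pool 4 than in both other pools, of 24 with a mean of at least 20 CPM, where 8.86% of all such genes were. SYNM, the filament protein synemin, stood at 288, 1309.8 and 1324 CPM. SYNPO2, an actin-organising protein of the dense bodies, stood at 455, 2035 and 2115 CPM. MYLK, the kinase that switches myosin on when calcium rises, stood at 325, 846 and 986 CPM. LPP, an adhesion-site protein, stood at 3.23, 42.04 and 45.5 CPM. For these genes the level in pools 5 and 6 is close, and the mean of 3 pools describes none of the pools.

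Actin genes code for nearly the same protein, so the split of reads among them is uncertain. ACTG2, the gamma-actin typical of visceral smooth muscle, stood at 3359.6, 2105 and 3837 CPM, lowest in pool 5. The cytoplasmic actins ACTB and ACTG1, both carried in the table as BETA-ACTIN and told apart by identifier, stood at 7724, 6348 and 7652 CPM for ACTB and at 3696, 3509 and 3960.00 CPM for ACTG1. ACTA1, the skeletal muscle actin, stood at 76.6, 72.2 and 119 CPM and the cardiac actin ACTC1 at 41.4, 38.6 and 53.2 CPM. Reads were thus assigned to actins of every class in all pools. Whether the small values of ACTA1 and ACTC1 are reads of other actins was not tested.

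Regulators of the smooth muscle state were nearly all detected, 15 of 16 matched. FHL1, a LIM protein of muscle carried in the table as FHL1C, took 3941, 3737 and 4009 CPM with a coefficient of variation of 3.63%. NOTCH3, the Notch receptor of arterial smooth muscle, stood at 1185, 1317 and 1652 CPM. HEYL, a transcription factor that Notch signalling switches on, stood at 1105, 1169 and 1117 CPM. The RNA-binding splicing regulators RBPMS2 and RBPMS stood at 456, 539.5 and 568 CPM for RBPMS2 and at 278, 409 and 351 CPM for RBPMS. SRF, the transcription factor that drives contractile genes, stood at 314, 358 and 431 CPM, and its coactivator MRTFA at 94.8, 152 and 168 CPM. KLF4, a factor that opposes the contractile programme, stood at 41.9, 57.5 and 40.00 CPM. TCF21, a factor of adventitial and epicardial fibroblasts, was the single matched member with 0 counts. No row was matched to MYOCD, the cardiac and smooth muscle coactivator myocardin.

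**Figure D2:**
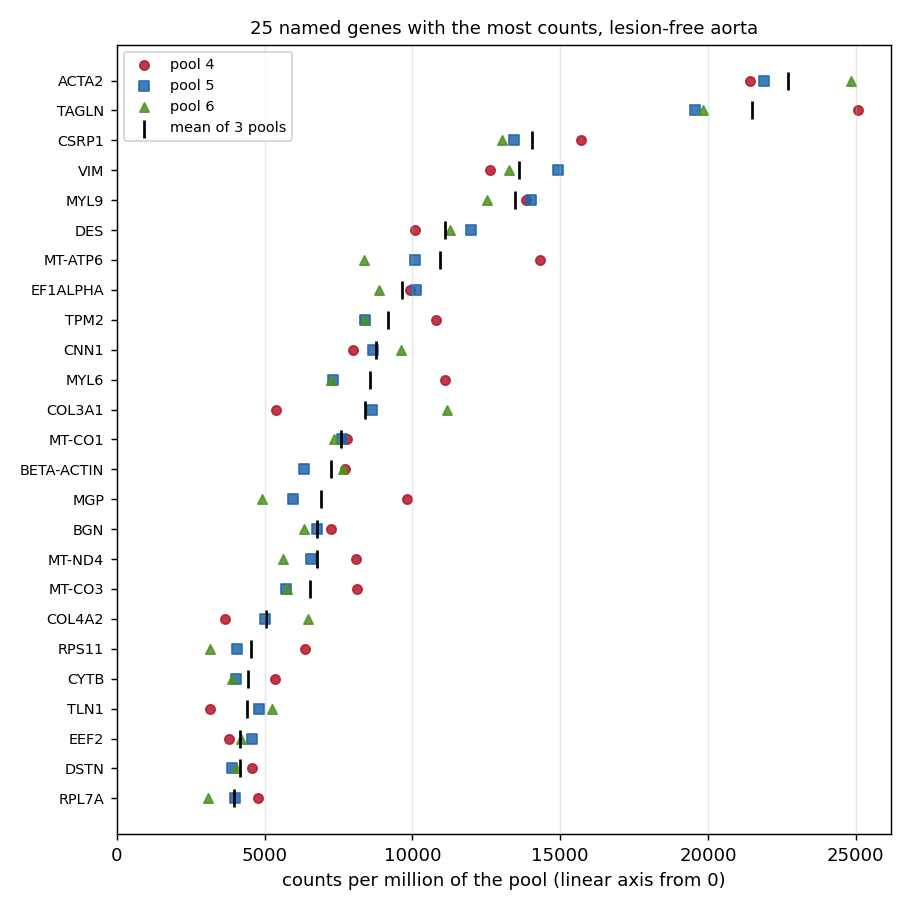
CPM of the 25 named genes with the most counts (linear axis from 0) in pools 4 (circles), 5 (squares) and 6 (triangles), with a bar at the mean. ACTA2 lies between 21405 and 24821 CPM and TAGLN between 19544 and 25073 CPM, while COL3A1 and MGP are spread widely between pools in opposite order.

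Counts were concentrated in a small number of genes. The 10 genes with the most counts in a pool held 14.5, 13.3 and 13.3% of its counts, the top 100 held 43.3, 38.4 and 38.2%, and the top 1000 held 75.2, 71.4 and 71.1%. The top 100 lists of the pools shared 70 genes, and the top 25 lists shared 18. Of the 100 genes with the highest mean, 25 encode ribosomal proteins and 9 are mitochondrially encoded. VIM, the filament protein vimentin of mesenchymal cells, took 12615, 14927 and 13255 CPM. COL3A1, the chain of type III collagen, took 5380.3, 8628 and 11160.1 CPM, and MGP, the secreted calcification inhibitor matrix Gla protein, took 9807, 5965 and 4903 CPM. The pools ranked in opposite order for these last 2 genes. TLN1, the protein talin that links integrins to actin, took 3159.6, 4810.3 and 5259.9 CPM, and the translation factor EF1ALPHA 9916, 10113 and 8878 CPM.

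Matrix genes were counted in depth. Fibrillar collagen and crosslinking genes were all detected (14 of 14) and summed to 10663, 14777 and 19603 CPM, with pool 6 1.84-fold above pool 4. COL1A2, the second chain of type I collagen, stood at 3160.1, 3572 and 4925 CPM, and COL1A1, its partner chain, at 379, 271 and 511 CPM. Both chains are needed in type I collagen, yet their CPM differed widely, and neither the length nor the completeness of the gene models was checked. COL5A1 and COL5A2, chains of the type V collagen that starts fibrils, stood at 311, 655 and 984 CPM for COL5A1 and at 293, 451 and 639 CPM for COL5A2. LOX, the enzyme that crosslinks collagen and elastin, stood at 36.5, 127 and 146 CPM and its relative LOXL1 at 273, 168 and 265 CPM. SERPINH1, the collagen chaperone, stood at 226, 315 and 367 CPM. Pool 4 was low for LOX but not for LOXL1. Of other collagens 7 of 11 matched were detected (63.6%, against 50.4% of protein-coding genes). COL6A2 stood at 843, 1339 and 1546 and COL8A1, the short-chain collagen of vessels, at 392, 673 and 899.5 CPM. The cartilage collagens COL9A1 and COL10A1 had 0 counts.

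Elastic fibre genes were also all detected (14 of 14). ELN, elastin, stood at 283, 354 and 496 CPM in pools 4, 5 and 6 (377 ± 108, SD, n = 3). The fibrillin FBN1, the microfibril scaffold on which elastin is laid down, stood at 45.4, 189 and 244 CPM. FBLN5 and EFEMP2, fibulins that guide elastin assembly, stood at 389, 396 and 546 CPM for FBLN5 and at 172, 170.03 and 184 CPM for EFEMP2. LTBP3 and LTBP1, which hold latent TGF-beta in the matrix, stood at 456, 587 and 790.4 CPM for LTBP3 and at 392, 461 and 554 CPM for LTBP1. FBN1 and LTBP2, at 86.4, 296 and 403 CPM, were the members over 2-fold lower in pool 4 than in both other pools. They were 2 of 12 members with a mean of at least 20 CPM, against 8.86% of all such genes. EFEMP2, EMILIN1 (222, 208 and 240.4 CPM) and MFAP2 (142, 124 and 123 CPM) held close levels across pools, with coefficients of variation of 4.39%, 7.30% and 8.18%. FBN2, the fibrillin typical of development, stood at 5.36, 8.95 and 9.49 CPM.

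Basement membrane genes, of which 14 of 18 matched were detected, had the lowest median in pool 4 among the matrix lists, at -0.81, 0.09 and 0.45 log2 units from the mean of the 3 pools in pools 4, 5 and 6. Their sum was 6676, 11969.6 and 15799 CPM, and 6 of 13 members with a mean of at least 20 CPM were over 2-fold lower in pool 4 than in both other pools. The share over all genes with such a mean was 8.86%. COL4A2 and COL4A1, which form the common type IV collagen network, stood at 3648, 5024 and 6473 CPM for COL4A2 and at 1581, 3840.1 and 4846 CPM for COL4A1. HSPG2, the large proteoglycan perlecan, stood at 156, 827 and 1358 CPM. LAMB2, LAMA4 and LAMC1 are laminin chains of vessel walls. LAMB2 stood at 391, 673 and 841 CPM, LAMA4 at 153, 215 and 294 and LAMC1 at 59.4, 235 and 339. COL4A6, a chain of smooth muscle basement membranes, stood at 184, 267 and 484 CPM. In every one of these genes pool 4 was lowest and pool 6 highest. COL4A3 and COL4A4, chains best known from kidney and lung, did not reach 1 CPM in pool 4 and stood at 0.554, 1.53 and 0 CPM for COL4A3 and at 0, 1.88 and 2.22 CPM for COL4A4.

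Proteoglycan genes were steady as a group but not one by one. All 12 of 12 matched were detected, and the sum was 11924, 11905 and 11867 CPM, a spread of 0.241%. BGN, biglycan, made up most of it at 7231, 6788 and 6329 CPM. FMOD, fibromodulin, stood at 2490.1, 2893 and 3395 CPM, and DCN, decorin, at 1154, 861 and 777 CPM. BGN and DCN were highest in pool 4 and lowest in pool 6, and FMOD was the reverse, so members differed between pools where their sum did not. LUM, lumican, stood at 107, 135 and 122, OGN, osteoglycin, at 233, 170.5 and 131, and PODN, podocan, at 216, 211 and 209 CPM. VCAN, the hyaluronan-binding proteoglycan versican, stood at 37.7, 78.3 and 102 CPM, and ACAN, aggrecan of cartilage, at 28.6, 27.8 and 59.3 CPM.

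Among secreted matricellular proteins, 18 of 19 were detected. FN1, fibronectin, stood at 1319, 2839.6 and 3431 CPM and TNC, the adhesion-modulating tenascin, at 562, 1665 and 2322 CPM. SPARCL1, a counter-adhesive glycoprotein, stood at 2300.2, 3061 and 3204 CPM. CCN2, CCN1 and THBS1, which respond to stretch and TGF-beta, were uneven. CCN2 stood at 491, 2000.1 and 1462 CPM, CCN1 at 341, 1152 and 599 CPM and THBS1 at 337, 1468 and 971 CPM. All 3 were highest in pool 5 and lowest in pool 4. CCN3, a relative that is high in quiescent vessels, stood at 1105, 1284 and 1861 CPM. POSTN, periostin, stood at 118, 123 and 153 CPM, COMP, a cartilage and vessel matrix protein, at 223, 337 and 385, and CILP2, a cartilage matrix protein, at 64.2, 69.00 and 91.8. SPP1, osteopontin, stood at 1.48, 4.24 and 6.36 CPM.

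Of matrix proteases and their inhibitors 15 of 19 were detected. MMP2, a gelatinase, stood at 509.6, 551 and 629 CPM (563 ± 60.6, SD, n = 3), and MMP14, the membrane enzyme that activates it, at 165, 267 and 298 CPM. TIMP1 stood at 362, 269 and 299, TIMP2 at 243, 309 and 425 and TIMP3, an inhibitor that is bound to matrix, at 18.4, 63.2 and 82.2 CPM. A2M, the broad protease trap alpha-2-macroglobulin, stood at 797, 1025 and 1397 CPM. ADAMTS1, which cleaves versican, stood at 258, 401 and 725 CPM. MMP9, the gelatinase of leukocytes, was not detected in all pools (3.33, 0 and 2.12 CPM), and MMP1 had 0 counts. For calcification control, MGP took nearly all of the list's counts. ENPP1, which makes the mineral inhibitor pyrophosphate, stood at 16.2, 12.1 and 9.70 CPM, and ANKH, its exporter, at 10.99, 19.9 and 21.8 CPM. BMP4, a bone morphogenetic ligand, stood at 58.7, 99.3 and 58.5 CPM. The bone factor RUNX2 had 0 counts, and the cartilage factor SOX9 stood at 0.739, 1.06 and 0.909 CPM.

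Receptors for vasoactive hormones were listed together with genes of cyclic GMP signalling. This joint list was counted at far fewer reads than contractile or matrix genes. Of its 38 matched members 25 were detected (65.8%, against 50.4% of protein-coding genes). With detection at 5 CPM the number fell to 14, while that over all genes fell from 9916 to 7486. RAMP1, the receptor partner that makes the receptor for the dilator peptide CGRP, stood at 548, 327 and 346 CPM, while its receptor CALCRL stood at 1.66, 1.77 and 6.97 CPM. NPR1, the receptor of atrial natriuretic peptide that makes cyclic GMP, stood at 229, 309 and 361 CPM, and NPR2, the receptor of C-type natriuretic peptide, at 67.5, 75.9 and 81.9 CPM. ADRA2C, an alpha-2 adrenergic receptor, stood at 136, 190.05 and 183 CPM. Of alpha-1 adrenergic receptors, which mediate constriction by noradrenaline, ADRA1D stood at 20.04, 14.2 and 22.4, ADRA1B at 6.93, 7.89 and 8.08 and ADRA1A at 0.185, 5.65 and 2.63 CPM. EDNRA, the constrictor receptor for endothelin, stood at 36.9, 15.5 and 27.4 CPM, and EDNRB at 0, 3.30 and 1.01 CPM. AGTR1, the main angiotensin II receptor, stood at 2.96, 1.88 and 4.04 CPM, from 32, 16 and 40 counts. AGTR2, ADRB1, ADRB3, PTGER1 and RAMP3 had 0 counts in all 3 pools.

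Prostanoid, serotonin and lipid mediator receptors were mixed. PTGER3, a prostaglandin E2 receptor that favours constriction, stood at 12.7, 32.1 and 25.8 CPM, and PTGIR, the prostacyclin receptor, at 3.69, 4.71 and 2.73 CPM. HTR1B and HTR2A, serotonin receptors of arteries, stood at 3.42, 4.36 and 12.2 CPM for HTR1B and at 1.94, 8.95 and 8.79 CPM for HTR2A. S1PR3, a sphingosine 1-phosphate receptor, stood at 45.4, 176 and 137 CPM and was over 2-fold lower in pool 4. The soluble receptor for nitric oxide has subunits GUCY1A1 and GUCY1B1, at 8.59, 12.1 and 25.3 CPM for GUCY1A1 and at 27.3, 30.4 and 25.2 CPM for GUCY1B1. Its downstream kinase PRKG1 stood at 33.5, 100.3 and 82.9 CPM, and PDE5A, which breaks cyclic GMP down, at 5.27, 30.6 and 37.9 CPM. The kinase and PDE5A were low in pool 4, but GUCY1B1 was not.

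Ion channel and calcium-handling genes had the lowest median in pool 4 of the lists with 5 or more detected members, at -1.07, 0.11 and 0.35 log2 units from the mean of the 3 pools in pools 4, 5 and 6. Of matched members 26 of 30 were detected, and 7 of 13 with a mean of at least 20 CPM were over 2-fold lower in pool 4 than in both other pools. Among all genes with such a mean, 8.86% were. KCNMA1 and KCNMB1, the pore and beta subunit of the calcium-activated potassium channel that limits constriction, stood at 32.98, 58.9 and 102 CPM for KCNMA1 and at 90.4, 122 and 136 CPM for KCNMB1. KCNJ8 and ABCC9, the subunits of the vascular ATP-sensitive potassium channel, stood at 23.1, 10.2 and 28.6 CPM for KCNJ8 and at 8.68, 29.9 and 29.1 CPM for ABCC9. PKD1 and PKD2, the polycystins, stood at 159, 461 and 661 CPM for PKD1 and at 30.9, 80.9 and 121 CPM for PKD2. ITPR1 and RYR2, calcium release channels of the internal store, stood at 8.59, 54.5 and 63.3 CPM for ITPR1 and at 26.05, 77.1 and 78.6 CPM for RYR2. ATP2B4, a plasma membrane calcium pump, stood at 7.39, 46.2 and 96.96 CPM. ANO1, a calcium-activated chloride channel, stood at 67.2, 63.3 and 85.05 CPM and STIM1, the store calcium sensor, at 61.8, 83.4 and 85.9 CPM. KCNMB1, ANO1 and STIM1 were within 2-fold across pools, unlike the other genes named here. TRPV4 and CACNA1D had 0 counts.

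Growth factor receptors were detected in 24 of 28 matched cases. FGFR1, a fibroblast growth factor receptor, stood at 601, 591 and 719 CPM (637 ± 71.5, SD, n = 3). IGF1R, the receptor of insulin-like growth factor 1, stood at 198, 413 and 484 CPM, and PDGFRB, the mural cell receptor for platelet-derived growth factor, at 203, 294 and 329.7 CPM. PDGFRA, its fibroblast counterpart, had 0 counts in pool 4 and stood at 0, 5.53 and 7.68 CPM. Receptors of the TGF-beta family included TGFBR1 at 25.03, 67.4 and 43.2, TGFBR2 at 12.7, 24.8 and 34.9 and BMPR2 at 41.3, 99.5 and 92.4 CPM. Of ligands, TGFB3 stood at 129.6, 804 and 481 CPM, TGFB1 at 118, 56.05 and 92.9 and TGFB2 at 13.9, 30.6 and 31.9. The ligands differed between pools in different orders, with TGFB3 highest and TGFB1 lowest in pool 5. IGFBP7, a binding protein of growth factors in vessel walls, took 2563, 2623 and 2927 CPM, while IGF1 stood at 0.739, 1.53 and 4.75 CPM. PTGIS, prostacyclin synthase, stood at 479.6, 584 and 796 CPM.

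Among Notch genes, JAG1, the ligand of smooth muscle and endothelium, stood at 159, 220.4 and 255 CPM, NOTCH2 at 42.9, 179.9 and 213 and NOTCH4, the endothelial receptor, at 7.30, 6.71 and 12.7. Integrin and collagen receptor genes were detected in 19 of 22 matched cases. ITGB1, the common beta-1 chain, stood at 1022, 1425 and 1516 CPM. Of its partners, ITGA8, the chain of smooth muscle, stood at 762, 1249.5 and 1512 CPM. ITGA5, of the fibronectin receptor, stood at 823, 898 and 1111 CPM, and ITGA1, of a collagen receptor, at 106, 239 and 344 CPM. DDR2, a collagen-sensing kinase, stood at 6.10, 47.9 and 52.5 CPM and DDR1 at 32.3, 32.9 and 31.1. The coefficient of variation was 15.8% for ITGA5 and 2.79% for DDR1, whereas DDR2 was low in pool 4. The epithelial chain ITGB6 had 0 counts.

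Nuclear receptors were detected in 19 of 25 matched cases. NR1H2, the broadly expressed oxysterol receptor LXR-beta, stood at 292, 253 and 305 CPM, and NR1H3, LXR-alpha, at 29.4, 22.1 and 19.5. THRB, a thyroid hormone receptor, stood at 174, 339 and 313 CPM. NR2F2, a factor of vascular identity, stood at 119, 123 and 140.1 CPM. The glucocorticoid receptor NR3C1 stood at 12.5, 42.3 and 45.5 CPM, and the mineralocorticoid receptor NR3C2 at 16.9, 21.9 and 22.3. The oestrogen receptor ESR1 stood at 19.3, 27.7 and 24.1 CPM, while ESR2 and PGR had 0 counts. PPARD stood at 52.3, 75.4 and 81.6 CPM, and PPARG, the fat cell regulator, was below 1 CPM in each pool (0.739, 0 and 0.303).

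Receptors that take up lipoproteins and genes that move cholesterol were detected in 11 of 14 matched cases. VLDLR, the very low density lipoprotein receptor, stood at 204, 304 and 349 CPM, and LRP6, a Wnt co-receptor of the same family, at 89.4, 138 and 164. APOE, the carrier that macrophages and other cells secrete, stood at 75.00, 41.1 and 56.8 CPM. ABCA1, the cholesterol exporter, carried by 2 rows that were added, stood at 17.2, 34.7 and 25.8 CPM, and SCARB1, the receptor of high density lipoprotein, at 12.2, 11.5 and 12.2. CD36 and OLR1, scavenger receptors for oxidised lipoprotein, stood at 2.40, 7.89 and 6.46 CPM for CD36 and at 0.924, 1.77 and 1.11 CPM for OLR1. No row was matched to LRP1.

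Endothelial markers were detected in 12 of 14 matched cases with a summed level of 718, 809 and 762 CPM. PECAM1, the junction protein CD31, stood at 158, 172 and 152 CPM (161 ± 10.04, SD, n = 3), and ESAM, another junction protein, at 197, 246 and 289 CPM. ERG, an endothelial transcription factor, stood at 124, 141 and 101, and NOS3, which makes nitric oxide, at 54.5, 70.1 and 42.9 CPM. KDR, a receptor for vascular endothelial growth factor, stood at 2.77, 2.71 and 6.87 CPM. The coefficient of variation was 6.26% for PECAM1 and 16.7% for ERG, but 57.9% for KDR. Its median over the detected endothelial markers was 35.3%, so PECAM1 and ERG were steadier than most of the list. Of adhesion molecules for leukocytes, VCAM1 stood at 23.2, 26.02 and 29.9, ICAM1 at 28.2, 15.3 and 27.7 and SELP at 3.23, 1.65 and 4.04 CPM. The gap junction genes GJA5 and GJA1 stood at 409.8, 562 and 673 CPM for GJA5 and at 55.1, 147 and 100.1 CPM for GJA1. For VWF and MMRN2 the table's symbol and the reference name of the identifier disagreed. VWF is therefore given no value, and MMRN2 is taken from another row, at 1.48, 1.65 and 4.55 CPM.

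Markers of other cell types of the wall were next compared with the table. Of adventitial fibroblast markers 8 of 10 were detected, led by PI16, a marker of adventitial progenitor-like fibroblasts, at 348, 401 and 339.98 CPM. SCARA5, a ferritin receptor of these cells, stood at 86.5, 101 and 73.8 and DPT, dermatopontin, at 30.4, 35.3 and 21.5 CPM. DPEP1 had 0 counts, and PDGFRA, given above, had 0, 47 and 76, so neither was detected. Of fat cell markers 3 of 4 matched were detected. PLIN4, a lipid droplet protein also made in muscle, stood at 21.8, 69.7 and 79.2 CPM. The lipid droplet proteins CIDEC and PLIN1, more typical of fat, stood at 10.2, 10.6 and 2.73 CPM for CIDEC and at 2.22, 7.54 and 1.21 CPM for PLIN1, and LEP, leptin, had 0 counts. Of nerve and Schwann cell genes 5 of 7 were detected, of which NCAM1, an adhesion molecule that is not specific to nerve, stood at 33.3, 52.8 and 52.9 CPM. Of lymphatic markers 4 of 7 were detected (57.1%, close to the 50.4% of protein-coding genes). PROX1, the defining factor, had 0 counts. CCL21, a chemokine of lymphatic vessels, stood at 26.5, 11.3 and 9.29 CPM. PDPN, podoplanin, stood at 1.66, 1.41 and 2.93 CPM, and RELN, a secreted glycoprotein, had 44, 11 and 107 counts. Mesothelial markers MSLN and UPK3B had 0 counts, and 0 of 5 members were detected (1 without pool 6). Haemoglobin genes HBB and HBA were highest in pool 4, at 117, 29.2 and 44.2 CPM for HBB and at 183, 56.4 and 71.3 CPM for HBA. The red blood cell list summed to 303, 86.8 and 118 CPM.

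**Figure D3:**
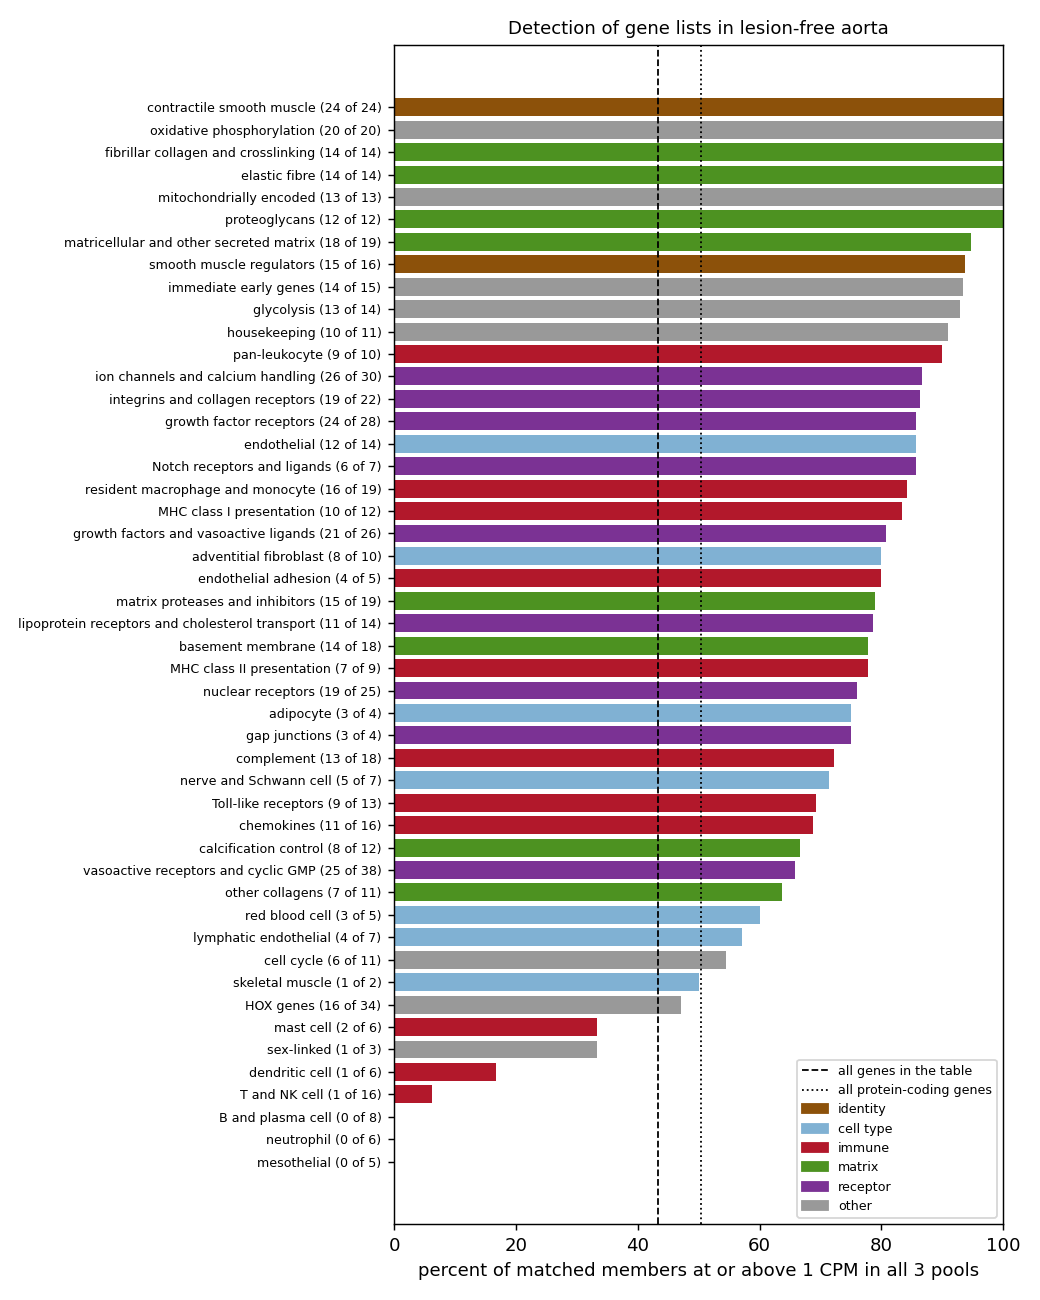
Percent of matched members of each list that reached 1 CPM in all 3 pools (bars, horizontal axis in percent; numbers in brackets are detected of matched members; colours mark the kind of list). The dashed and dotted lines are all genes (43.4%) and all protein-coding genes (50.4%) of the table. The contractile, fibrillar collagen and elastic fibre lists reach 100%, other collagens 63.6%, while B cell, neutrophil and mesothelial lists are at 0.

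Resident immune genes were described list by list. Of leukocyte-wide genes 9 of 10 were detected, summing to 301, 178 and 179 CPM. ARHGDIB, a GTPase inhibitor of leukocytes that other cells also make, held most of this sum at 195, 105 and 111 CPM. PTPRC, the leukocyte phosphatase CD45, stood at 8.68, 8.01 and 2.22 CPM from 94, 68 and 22 counts. The integrin chain ITGB2, which leukocytes use to adhere and which the series title names, stood at 17.4, 16.01 and 11.6 CPM. FCER1G and TYROBP, signalling adaptors of myeloid receptors, stood at 20.4, 18.6 and 12.1 CPM for FCER1G and at 15.6, 5.18 and 9.39 CPM for TYROBP. Pool 4 was highest for 8 of the 10 matched members, while LCP1 (8.41, 7.89 and 9.29 CPM), an actin-bundling protein, and RAC2 (4.16, 0.589 and 6.46 CPM), a small GTPase, were highest in pool 6. The summed list was 1.69-fold higher in pool 4 than in pool 5, and most of that gap lay in ARHGDIB.

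Macrophage and monocyte markers were detected in 16 of 19 matched cases. FOLR2, the folate receptor of resident macrophages, stood at 102, 53.9 and 68.5 CPM (74.9 ± 24.8, SD, n = 3). C1QC and C1QA, chains of complement C1q made by macrophages, stood at 78.3, 65.7 and 47.4 CPM for C1QC and at 70.1, 51.5 and 28.99 CPM for C1QA. CD14, the lipopolysaccharide co-receptor, stood at 68.5, 40.7 and 36.9 CPM, and MPEG1, a pore-forming protein of macrophages, at 28.7, 26.4 and 24.7. CSF1R, the growth factor receptor that macrophages need, stood at 17.4, 18.96 and 24.3 CPM. LYVE1, a hyaluronan receptor of vessel-associated macrophages and lymphatics, stood at 9.98, 6.01 and 3.33 CPM, and MRC1, the mannose receptor, at 14.2, 11.5 and 9.29. C1QC, C1QA and LYVE1 were highest in pool 4 and lowest in pool 6, while CSF1R was the reverse. LYZ stood at 2.03, 4.95 and 1.72 CPM, and CX3CR1, the fractalkine receptor, at 4.06, 3.89 and 2.73. CCR2, the receptor of recruited monocytes, had 0 counts in the row matched to it, and MARCO had 0, 0 and 4 counts.

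Most listed T cell, B cell, dendritic cell and neutrophil markers did not reach 1 CPM in all pools, but immunoglobulin genes and some mast cell genes did have reads. Of T and NK cell genes 1 of 16 were detected, namely IL7R, a cytokine receptor, at 4.43, 3.89 and 5.76 CPM. Without pool 5 the number was 2. CD3E had 11, 0 and 4 counts and CD3D 1, 0 and 3 counts in pools 4, 5 and 6, and CD3G had none. Of B and plasma cell genes 0 of 8 were detected, and 1 without pool 6. CD79B had 38, 9 and 1 counts, and MS4A1 and PAX5 had none. Pool 4 held most of the few B cell counts. Immunoglobulin constant genes, which plasma cells transcribe heavily, summed to 131, 57.6 and 106 CPM and variable genes to 37.1, 14.6 and 25.3 CPM, lowest in pool 5. Among dendritic cell genes WDFY4, a protein of cross-presentation, was the single detected one at 2.77, 3.89 and 2.53 CPM, and XCR1 and CD1A had 0 counts. The neutrophil genes S100A8, S100A9, S100A12, MPO, ELANE and MMP8 had 0 counts in every pool. Of mast cell genes 2 of 6 were detected (33.3%, against 50.4% of protein-coding genes). MS4A2, a chain of the IgE receptor, stood at 29.2, 22.6 and 11.6 CPM and GATA2 at 13.6, 6.24 and 9.29. KIT had 8, 10 and 22 counts and FCER1A 30, 19 and 5 in pools 4, 5 and 6, and HDC had none.

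Antigen presentation and complement genes were also counted. In MHC class II presentation, 7 of 9 were detected, with SLA-DRA at 175, 146 and 113 CPM and SLA-DQA1 at 125, 94.4 and 93.4 CPM. CIITA, the master activator of class II, had 0 counts in pool 4 and stood at 0, 3.06 and 1.21 CPM. B2M, the light chain of class I, carried by 2 rows that were added, stood at 1425, 925 and 767 CPM and SLA-1, a class I heavy chain, at 352, 344 and 299.6. TAP2 had 0 counts in all pools, and TAP1, the other part of the peptide transporter, had counts in pool 6 alone (0, 0 and 8.89 CPM). Of complement genes 13 of 18 were detected. SERPING1, the C1 inhibitor, stood at 951, 1074 and 909 CPM, and CLU, the terminal complement inhibitor clusterin, at 688, 698 and 489 CPM. C3, the central component, stood at 23.8, 46.4 and 33.4 CPM, C7 at 31.6, 30.1 and 23.3, and C5AR1, the receptor of C5a, at 13.3, 13.2 and 10.7. C4A was lowest in pool 6, at 47.9, 62.9 and 16.3 CPM. C6, C8A and C9 were not detected.

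Chemokine and pattern receptor genes were detected in 11 of 16 and 9 of 13 matched cases (68.8% and 69.2%, against 50.4% of protein-coding genes). With detection at 5 CPM these numbers were 10 and 4. CCL5, a lymphocyte chemokine, stood at 237, 164 and 162 CPM (188 ± 42.7, SD, n = 3). CCL19, a chemokine of lymphoid tissue, stood at 123, 88.4 and 83.6 CPM. CXCL12, which retains leukocytes and progenitors, stood at 60.9, 57.1 and 54.7 CPM, and CX3CL1, fractalkine, at 29.1, 47.7 and 55.8. CCL2, the monocyte chemokine, stood at 11.9, 8.71 and 7.17 CPM, and CXCL8, the neutrophil chemokine, had 0 counts. ACKR1, a decoy receptor of venous and other endothelium, stood at 25.5, 29.9 and 23.7 CPM. Of Toll-like receptors, TLR2 stood at 9.61, 7.42 and 8.79 and TLR4, the receptor of lipopolysaccharide, at 2.96, 7.18 and 2.53 CPM, while TLR6 and TLR8 had 0 counts. MYD88, the shared adaptor, stood at 57.5, 46.98 and 56.2 CPM.

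HOX genes, transcription factors that mark position along the body axis, were detected in 16 of 34 matched cases (47.1%, against 50.4% of protein-coding genes), and 7 had 0 counts in all pools. HOXA7 stood at 63.9, 50.99 and 41.2 CPM and HOXA5 at 22.8, 29.1 and 27.7. HOXC6 stood at 33.2, 36.4 and 30.6 CPM and HOXC10 at 17.7, 21.7 and 29.3. In the B cluster HOXB2 stood at 15.1, 12.01 and 18.5 CPM, HOXB7 at 16.3, 11.9 and 7.88 and HOXB3 at 9.51, 15.9 and 7.27. In the D cluster HOXD9 and HOXD8 stood at 12.4, 6.71 and 10.5 CPM for HOXD9 and at 4.53, 10.95 and 6.36 CPM for HOXD8. Each of these was counted in every pool. The genes at the far end of the clusters, HOXB13, HOXC12, HOXC13 and HOXD12, had 0 counts, and HOXD13 had 1, 0 and 0. HOXA9 and HOXB8 also had 0 counts, between neighbours that were counted. The sum over the list was 249, 239 and 234 CPM, a spread of 3.18%.

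**Figure D4:**
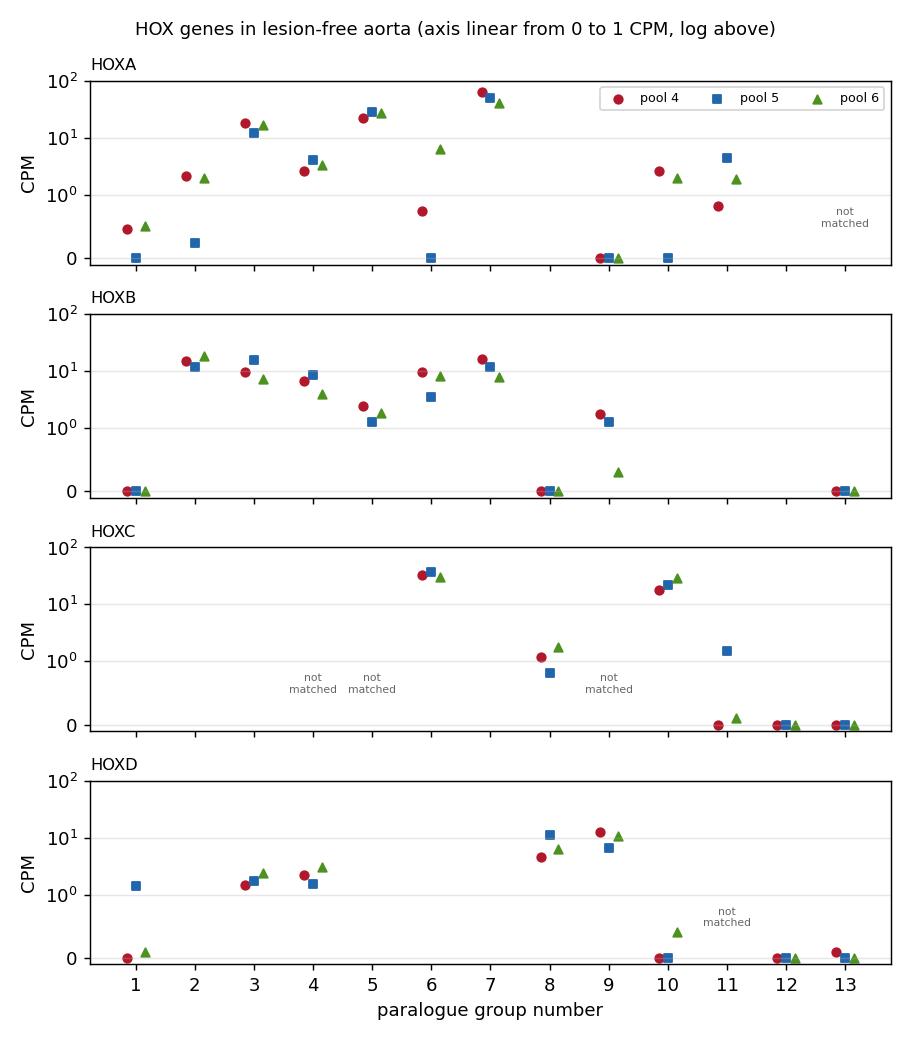
CPM of each matched HOX gene (vertical axis, linear from 0 to 1 and logarithmic above) by paralogue group number, 1 panel for each cluster; circles are pool 4, squares pool 5 and triangles pool 6, and unmatched genes are marked. HOXA7, HOXC6, HOXC10 and HOXA5 have the most reads, and groups 12 and 13 are at or near 0.

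Of cell cycle genes 6 of 11 were detected, which is 54.5% and close to the 50.4% of protein-coding genes. MKI67, the proliferation marker Ki-67, stood at 2.22, 3.89 and 4.34 CPM and TOP2A, a mitotic topoisomerase, at 1.20, 2.47 and 6.67. CDK1 had 0, 0 and 7 counts, and BUB1 had none. PCNA, the replication clamp, stood at 15.2, 10.01 and 18.9 CPM. Both TOP2A and PCNA were highest in pool 6.

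Immediate early genes, which respond within a short time to handling or stimulation, were detected in 14 of 15 matched cases and did not move together. EGR1 stood at 1301, 915 and 899 CPM, FOS at 404, 286 and 186 and JUNB at 277, 181 and 115, all highest in pool 4. JUN was even, at 774, 767 and 708 CPM. ATF3, a stress-induced factor of the same class, went the other way at 8.68, 194 and 202 CPM. DNAJB1, a heat shock co-chaperone, stood at 49.8, 118 and 81.1 CPM.

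Energy metabolism genes were detected almost throughout. Of glycolytic genes 13 of 14 were detected, with PKM, pyruvate kinase, at 1083, 1000.04 and 1097 CPM. GAPDH stood at 1373, 852 and 887 CPM, highest in pool 4. HK1, the general hexokinase, stood at 209, 247 and 219.99 CPM, and HK2, the insulin-responsive form, at 0.0924, 4.47 and 3.64. Nuclear genes of oxidative phosphorylation were all detected (20 of 20) and summed to 2963, 2229 and 2045 CPM. COX4I1, a subunit of cytochrome oxidase, stood at 803, 546 and 465 CPM. Mitochondrially encoded COX1 was the steadiest of its list, at 7774, 7635 and 7362 CPM, a spread of 2.76%, while ATP6 stood at 14319.6, 10099 and 8374 CPM.

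Y-linked genes were uneven. ZFY had 87, 0 and 146 counts, USP9Y 121, 94 and 251 and UTY 7, 0 and 0 in pools 4, 5 and 6. ZFY was thus counted in pools 4 and 6 and not in pool 5, whereas USP9Y was counted in all pools. These genes have close copies on the X chromosome, so the assignment of reads is uncertain. Without pool 5 the detected members of the list numbered 2 rather than 1.

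The spread between pools exceeded counting error in most genes. Among genes with a mean over 100 and up to 1000 CPM the median coefficient of variation was 18.5% over 3 pools and 9.10% over pools 5 and 6 alone, where counting alone gives 2.43%. For genes over 20 and up to 100 CPM the values were 22.1%, 12.3% and 4.99%, and for genes over 1 and up to 5 CPM they were 62.3%, 47.2% and 20.4%. The median SD of 2 values tends to be lower than that of 3, so these medians overstate how much closer pools 5 and 6 were. Pair by pair, the median absolute log2 ratio among genes with a mean of at least 20 CPM was 0.229 for pools 5 and 6. It was 0.415 for pools 4 and 5 and 0.435 for pools 4 and 6. In the range of 100 to 1000 CPM, 94.7% of genes varied by more than 2 times the counting error. Each value comes from several animals mixed, so the spread of single animals was not measured.

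**Figure D5:**
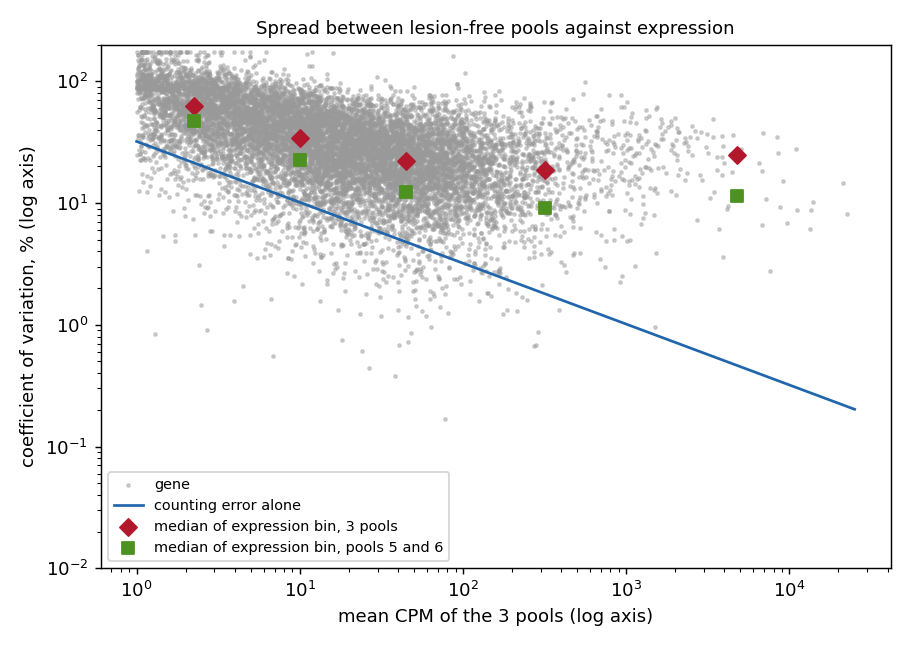
Coefficient of variation between pools (vertical log axis, percent) against mean CPM (horizontal log axis) for genes with a mean of at least 1 CPM (grey points), with the line that counting error alone gives. Diamonds are bin medians over 3 pools and squares those over pools 5 and 6, which are lower in every bin (9.10% against 18.5% between 100 and 1000 CPM).

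Some genes were nearly constant. RAB2B, a small GTPase, stood at 77.2, 77.1 and 76.97 CPM and DAB2, an endocytic adaptor, at 38.2, 38.5 and 38.5 CPM. EHD2, a protein of caveolae, stood at 1512, 1494 and 1523 CPM and SERBP1, an RNA-binding protein, at 281, 277 and 279. The coefficient of variation of RAB2B was 0.167%, below what counting alone gives at this depth, so the smallest values among so many genes are not a measure of stability.

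Among the least even genes, several were lowest in pool 4. GFOD1, an oxidoreductase-like protein, stood at 5.54, 30.5 and 70.4 CPM. MAST4, a kinase, stood at 1.02, 29.8 and 50.9 CPM, and PRUNE2 at 32.1, 156 and 309 CPM. KMT2C and ATP2B4, given above, showed the same deficit in pool 4. IL1RL1, the receptor of interleukin 33, stood at 17.1, 179 and 83.3 CPM, lowest in pool 4 and highest in pool 5. APOA1, the main protein of high density lipoprotein, stood at 52.4, 6.36 and 22.7 CPM, and BRF2, a factor of RNA polymerase III, at 66.8, 7.06 and 15.3 CPM, both highest in pool 4. Other genes, less uneven, stood furthest from the remaining pools in pool 5 or 6. AQP3, a water and glycerol channel, stood at 131, 241 and 37.7 CPM, and LCN2, the iron-trapping protein lipocalin, at 85.3, 71.2 and 23.6 CPM, both lowest in pool 6. SCUBE1, a secreted and membrane glycoprotein, stood at 66.3, 68.5 and 199 CPM, highest in pool 6. IDI1, an enzyme of cholesterol synthesis, stood at 33.4, 4.83 and 27.7 CPM and was lowest in pool 5. RCAN1, an inhibitor of calcineurin, stood at 35.4, 123 and 51.8 CPM and BCL3, a regulator of NF-kappa-B, at 14.2, 41.1 and 12.3, both highest in pool 5.

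Isoform counts allowed a view of transcript choice in 57 listed genes with a mean of at least 20 CPM and 2 or more isoforms with counts. The leading isoform held over 90% in each pool in 13 genes and under 60% on average in 10. Its share differed by over 20 percentage points between pools in 28, so the split was often not the same from pool to pool. In PECAM1 the leading isoform held 100, 99.5 and 99.9% and in JAG1 100, 100 and 99.8% in pools 4, 5 and 6. BGN was divided, its leading isoform holding 78.5, 69.3 and 75.5%. For FGFR1, carried as FGFR1IIIC, the leading share was 39.8, 49.7 and 52.3%. Its mean of 47.3% was the lowest of the 57 genes, and a second isoform held 32.0% on average. The leading isoform of A2M held 54.1, 40.5 and 48.1% and that of CLU 36.8, 60.2 and 53.3%. For CXCL16 the shares were 54.4, 54.2 and 43.8% and for CXCL12 47.6, 67.2 and 38.01%. A second isoform held more in pool 5 for A2M (50.4%), pool 4 for CLU (59.7%) and pool 6 for CXCL16 (56.2%). In CD34, a marker of endothelium and fibroblasts, the leading isoform of 2 held 100, 0 and 67.5%, so each pool was assigned a different mix. Isoform counts are estimates that share reads among overlapping transcripts, and the files give no error for them.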

How the data were processed

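Per the labels' protocols, about 3 mg of freeze-dried aorta was ground, RNA was purified on silica columns, and stranded libraries of total RNA were prepared by a service laboratory. RSEM 1.3.0 and edgeR are named in the submitters' processing notes without a stated role. The read aligner, and the build it used, were not given in the sources used here. Counts were deposited by the authors per gene and per isoform in whole numbers, with a comma between groups of digits that was removed. Because of the commas the unit of the deposited columns was recorded as other than plain counts, and no count model was run.

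Values were divided by the pool total and scaled to 1000000 (Python 3.11.15, pandas 2.3.3). With 1 group there is no comparison between groups and no test. Spread is the SD over 3 pools, and a spread given in percent is the coefficient of variation. Gene names came from the table, or from the reference for the identifier: of 7481 genes with only an identifier 1723 were named. Rows of 1 symbol were added. Of 782 listed genes 547 matched by table symbol, 99 by identifier and 7 by synonym, 6 were left out because the table's and the reference's names disagreed, and 123 had no row matched. No transcript length was at hand, so the planned order of genes per kilobase was not made. Ratios between pools used a pseudocount of 1 CPM. Isoforms were tied to a gene where their counts summed to the gene's within 2 counts. The calculations were tested on simulated data. Members and lists were chosen with earlier results of these data known.

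Named genes were the smooth muscle markers, the actins, the 25 genes with the most counts and up to 6 leading members of each list. Defining list members at 0 were also named, as were the most and least even genes with a mean of at least 20 CPM. Also named were the genes furthest from the other pools in each pool, and genes with the lowest mean share of the leading isoform. Others were named after their values were seen, and some items are not reported here. Alternatives were TMM scaling (trimming 30% of M and 5% of A), detection at 0.5 or 5 CPM, a pseudocount of 0.1 CPM, leaving out mitochondrial genes or the top 10 genes, and leaving out each pool.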

Additional observations from a re-analysis of the deposited data

How the results depend on the processing

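The number of genes detected was 10497 at 0.5 CPM, 7486 at 5 CPM and 9940 with TMM scaling, against 9916, and 10068 to 10582 when 1 pool was left out. The mean correlation of pool pairs was 0.945. It was 0.896 with a pseudocount of 0.1 CPM, and 0.933 to 0.959 when 1 pool was left out, highest without pool 4. The count of genes over 2-fold lower in pool 4 was 336 with TMM scaling and 489 with the smaller pseudocount, against 462. The median share of the leading isoform was 77.6%, and 80.3% to 83.8% when 1 pool was left out. Mean CPM of single genes moved by less than their SD under TMM scaling in 596 of 596 listed genes with a count, and by more than their SD in 88 when the 10 most abundant genes were left out of the total. The number detected in a list moved by over 1.5 times in 13 lists at 5 CPM and in 2 at 0.5 CPM. Leaving out pool 5 moved 2 lists and leaving out pool 6 moved 2, named beside their counts. The order per kilobase was not run, because no transcript length was at hand. No paired analysis was possible because there is 1 group. For genes over 1 and up to 5 CPM counting alone gives a median spread of 20.4%, against 62.3% observed, and the cause of the rest was not tested.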

Other observations

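Small structural RNAs were highest in pool 6. 7SK, the RNA that restrains transcription elongation, stood at 33.5, 33.7 and 241 CPM in pools 4, 5 and 6. Metazoa_SRP, the RNA of the signal recognition particle, stood at 39.3, 43.3 and 192 CPM in each of 2 rows whose counts were identical. The class they belong to summed to 120.4, 127 and 659.9 CPM, so the other pools were close. Annotated ribosomal RNA genes summed to 11.8, 4.00 and 22.6 CPM, and microRNA genes had 0 counts.

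Genes without a symbol or reference name took 6.89, 6.28 and 6.17% of counts, and were 1108 of the 9916 genes detected. Only an identifier was given for 7481 genes, of which the reference named 1723. Over all genes 43.4% were detected. The unnamed gene ENSSSCG00000024107 stood at 1138, 502 and 38.7 CPM in pools 4, 5 and 6, chosen here after its values were seen. A second row named MYL6 had 0, 2115 and 123 counts beside a main row with 120364, 62078 and 71613.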
